A study of Mus musculus with 74 samples.

Results

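The genes described here are 39 named genes, listed together as hypoxia-induced and glycolysis genes. They were matched by symbol to the annotated probes of a mouse 2-colour array, and 34 of the 39 had a probe, 37 of the 16463 probes in all. Pfkfb4, Eno1, Gpi1, Pdk1 and Ankrd37 had none, and Ero1l was found under the annotated symbol Ero1a. By role, the measured genes comprised 2 glucose transporters, 11 glycolytic enzymes, 2 regulators of flux or glycogen, and 5 genes of oxygen sensing, prolyl hydroxylation or disulfide formation. They also comprised 3 mitochondrial proteins, 5 secreted or cell-surface proteins, 4 genes of transcription and stress, and the 2 selenium-binding proteins Selenbp1 and Selenbp2. Selenbp1 and Selenbp2 were on the list as given and are set apart by role. No label names an oxygen treatment, so the response to oxygen itself was not tested. Ndrg1, Pfkl and Egln3 had 2 probes each and are given by the first. The second probe of Ndrg1 lay between -0.20 and 0.28 in every comparison and was called in none, so the Ndrg1 values below rest on 1 probe.

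The study hybridised 74 arrays in 11 groups, each array carrying a test RNA and a partner RNA in opposite dyes. In 7 groups the test RNA came from DO11.10, a mouse T cell hybridoma (a T cell fused to a tumour line), after transduction with a retrovirus, and the partner was untreated DO11.10 cells. The empty virus MSCV was hybridised in a set of 12 arrays on slide series 14 and 15, called set A here, and in a separate set of 4 arrays on slides 1 to 4 without a series number, called set B. Further viruses carried HDAC7-VP16 (10 arrays, series 14 and 15), MEF2D-VP16 (4 arrays) or Nur77 (4 arrays). HDAC7, a histone deacetylase of class IIa, represses transcription through partners such as MEF2D, VP16 is a viral activation domain, and Nur77, the product of Nr4a1, is an orphan nuclear receptor induced by T cell receptor signals. In 2 groups of 8 arrays the cells also received PMA and ionomycin, drugs that imitate T cell receptor signals, for 2.5 h. One of them carried empty MSCV and the other an HDAC7 form that the labels call HDAC7 DP without explaining the letters. DO11.10 total thymocytes, from mice with a transgenic T cell receptor, were compared with mhc -/- total thymocytes on 6 arrays. Thymocytes of DO11.10 mice injected with antigenic peptide 3, 6 or 12 h before harvest were compared with those of uninjected DO11.10 mice, on 6 arrays each. Strain, age, sex, pooling of animals and clonality of the transduced cells were not given in the sources used here. The hybridoma is one transformed line, and total thymocytes are a mixture of developmental stages.

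Cells sense oxygen through prolyl hydroxylases, encoded by Egln1 and Egln3 among others, which mark HIF alpha subunits for destruction by VHL. When oxygen is scarce, HIF1 accumulates and binds hypoxia response elements, raising glucose transporters, glycolytic enzymes, mitophagy receptors such as Bnip3 and secreted factors such as Vegfa. In T cells the same programme also follows antigen receptor and mTOR signals, because activated T cells raise glycolysis even where oxygen is plentiful.

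The core of the hypoxia response element, ACGTG or GCGTG, was searched on both strands of the promoters of these genes, taken from RefSeq on build GRCm38.p6 as the first listed window of each gene, 250 bases before and 50 bases after the annotated start. A window was found for 29 of the 34 genes (none for Ndrg1, Bnip3l, Slc2a3, Stc1 and Bhlhe40). Either core was present in 22 of 29 (75.9%), against 11836 of 27025 genes in the table (43.8%). ACGTG was present in 18 (62.1%, against 19.7% of all genes) and GCGTG in 17 (58.6%, against 32.5%). A match is a description of letters, not a bound site or a cause. The windows of Bnip3, Selenbp2, Slc2a1 and Aldoc are shown because the hybridoma results turn on these genes, and that of Ldha because it held the most matches, 7, while Ldha was called in no hybridoma group against untreated cells. Capitals mark the cores as read on the printed strand or on its complement, where they appear as CACGT or CACGC, and CACGTG is ACGTG on both strands. Coordinates and strands are chr7:138909457-138909756, minus strand, for Bnip3, chr3:94693323-94693622, plus strand, for Selenbp2, chr4:119108495-119108794, plus strand, for Slc2a1, chr11:78322823-78323122, plus strand, for Aldoc, and chr7:46845554-46845853, plus strand, for Ldha.
Bnip3: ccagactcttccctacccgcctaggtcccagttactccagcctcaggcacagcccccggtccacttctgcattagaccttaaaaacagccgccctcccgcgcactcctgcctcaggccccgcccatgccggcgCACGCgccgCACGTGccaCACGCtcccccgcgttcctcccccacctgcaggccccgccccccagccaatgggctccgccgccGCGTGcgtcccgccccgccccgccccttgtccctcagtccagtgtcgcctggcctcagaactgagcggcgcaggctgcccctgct
Selenbp2: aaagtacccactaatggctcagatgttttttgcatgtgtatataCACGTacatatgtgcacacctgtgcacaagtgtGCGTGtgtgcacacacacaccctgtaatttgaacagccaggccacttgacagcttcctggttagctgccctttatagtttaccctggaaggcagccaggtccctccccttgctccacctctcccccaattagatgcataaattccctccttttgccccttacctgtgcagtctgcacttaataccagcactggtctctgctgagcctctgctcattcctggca
Slc2a1: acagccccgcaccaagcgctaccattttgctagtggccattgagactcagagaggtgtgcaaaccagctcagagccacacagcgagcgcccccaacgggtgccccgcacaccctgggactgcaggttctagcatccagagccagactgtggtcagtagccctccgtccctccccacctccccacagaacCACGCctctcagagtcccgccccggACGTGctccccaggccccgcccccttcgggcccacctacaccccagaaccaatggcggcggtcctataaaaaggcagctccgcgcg
Aldoc: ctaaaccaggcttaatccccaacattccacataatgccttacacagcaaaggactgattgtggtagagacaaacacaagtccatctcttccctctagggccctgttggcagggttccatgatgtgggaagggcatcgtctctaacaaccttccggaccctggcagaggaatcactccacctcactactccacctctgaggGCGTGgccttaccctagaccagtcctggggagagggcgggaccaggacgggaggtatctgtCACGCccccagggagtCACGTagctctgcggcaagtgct
Ldha: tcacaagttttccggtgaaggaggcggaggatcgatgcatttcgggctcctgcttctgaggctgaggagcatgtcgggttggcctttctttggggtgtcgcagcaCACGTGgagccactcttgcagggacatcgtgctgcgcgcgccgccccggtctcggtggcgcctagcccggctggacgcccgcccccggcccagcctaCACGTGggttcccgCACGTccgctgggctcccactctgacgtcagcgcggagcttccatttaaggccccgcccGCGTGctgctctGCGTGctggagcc
No core was found in the windows of Tpi1, Gys1, Aldoa, Pkm, Hk1, Vegfa and Mxi1. In Slc2a1 the cores began 36 and 61 bases before the start, and in Selenbp2 206 and 173 bases before it.

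All values are log2 ratios of test over partner RNA, except that the mhc -/- arrays are given as DO11.10 over mhc -/-, centred on each array's median, so 0 is no difference and a negative value is less RNA in the test sample. Each comparison was fitted across all 16463 probes with limma, with dye orientation as a term, and a gene was called where its Benjamini-Hochberg adjusted p was below 0.05. The labels do not say whether arrays came from separate cultures or mice, so the p-values reflect how far arrays of a group scattered, and that scatter may be technical. Ratios carry no level, so the labelled cell type could not be checked by marker levels. Cd28, a costimulatory receptor gene outside the list, averaged 3.85 with HDAC7-VP16, 3.53 with MEF2D-VP16 and 3.09 with Nur77, and Nr4a1 averaged 4.50 with Nur77. The Mef2d probe averaged -0.01 with MEF2D-VP16, and whether it lies within the transduced insert was not tested. The Hdac7 probe averaged 0.55 with HDAC7-VP16 (from -0.15 to 1.19) and 1.36 with MEF2D-VP16, which carries no HDAC7. On the HDAC7 DP arrays it lay between -0.02 and 0.46 in series 14 and between 3.41 and 4.81 in series 15. On empty virus set A and on HDAC7-VP16, arrays of opposite dye correlated at a median of -0.401 and -0.475 over all probes after turning, and those of set B at -0.241, so a dye pattern was large there. On set A, replicates 3 and 9 ran against the others of their orientation and their direction is not settled. HDAC7-VP16 replicate 1 has a source name that reads MSCV and was kept under its title. Every hybridoma comparison shares the untreated cells as partner, and comparisons with the same empty virus set also share those arrays, so their results are not independent of each other.

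**Figure D1:**
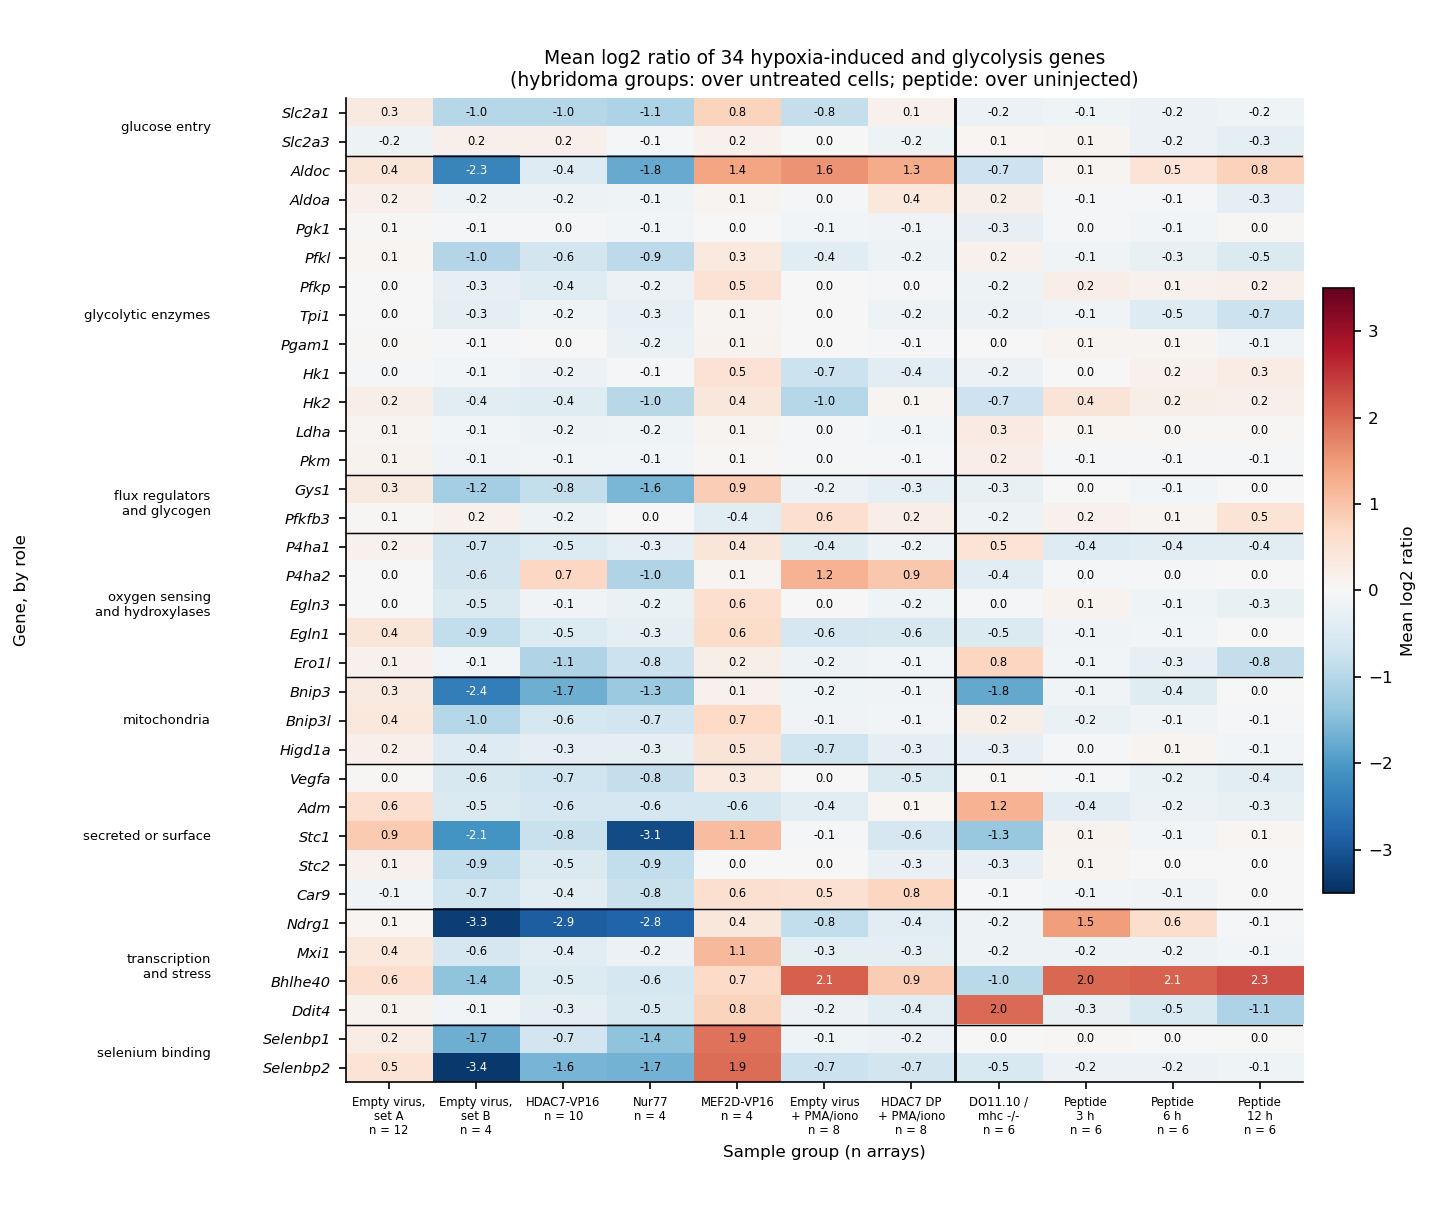
Mean log2 ratio over partner RNA for the 34 measured genes (vertical axis, ordered by role) in the 11 groups (horizontal axis), centred on each array's median, with blue below 0 and red above 0. Empty virus set B and Nur77 are blue for most genes and MEF2D-VP16 is red for most, while Ldha, Pgk1, Pgam1 and Pkm stay pale across the hybridoma groups.

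The empty virus alone gave different values in its 2 sets. In set B, 21 of the 34 genes were called and all 21 were lower than in untreated cells, where 5.72% of all probes were called and 3.01% were called lower. The genes were chosen with earlier results of these data known, so such shares, here and in later comparisons, are no test of the list. The median change of the 34 genes was -0.58, 32 of them lay below 0, and 47.2% of all probes did. In set A, 5 of the 34 were called, all 5 higher (1.97% of all probes called, 0.626% higher), with a median of 0.14. The called genes of set B came from every role: 1 of 2 glucose transporters, 3 of 11 glycolytic enzymes, 3 of 5 genes of oxygen sensing and hydroxylation, 3 of 3 mitochondrial, 5 of 5 secreted or surface, 3 of 4 of transcription and stress, Gys1, and both selenium-binding genes.

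Selenbp2, a selenium-binding protein, read -3.36, -3.38, -3.74 and -3.06 on the 4 arrays of set B, and on the 12 arrays of set A its lowest, median and highest values were -0.01, 0.49 and 1.11. Ndrg1, a stress-response gene strongly raised by low oxygen, read -3.13, -3.14, -3.32 and -3.58 in set B and -0.53, 0.00 and 0.81 as lowest, median and highest in set A. Bnip3, a receptor for the removal of mitochondria, read -2.35, -2.42, -2.46 and -2.40 in set B and -0.12, 0.31 and 0.87 in set A. For all 3 genes every array of set B lay below every array of set A, and within set B the arrays differed little. Against untreated cells, Selenbp2 was 10.4-fold lower in set B (log2 change -3.38, SE 0.11, limma adjusted p = 1.12e-05) and Ndrg1 was 9.80-fold lower (-3.29, SE 0.08, adjusted p = 3.42e-06). Bnip3 fell by 2.41 on the log2 scale (adjusted p = 1.04e-05).

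Among the enzymes, Aldoc, the brain-type aldolase isoform, read -2.56, -2.65, -2.21 and -1.84 in set B, and in set A 0.09, 0.37 and 0.82 as lowest, median and highest. Slc2a1, the main glucose transporter GLUT1, was less even, at -1.58, -1.10, -0.69 and -0.66 in set B and -0.58, 0.33 and 0.95 in set A. Both sets of 4 arrays lay wholly below the 12 arrays of set A. Aldoc changed by -2.31 against untreated cells (SE 0.09, limma adjusted p = 1.74e-05) and Slc2a1 by -1.0 (SE 0.09, adjusted p = 0.00201). Gys1, muscle-type glycogen synthase, changed by -1.20 and Pfkl, the liver-type phosphofructokinase, by -1.01. The second Pfkl probe averaged -0.14 in set B, with 2 of the 4 arrays above 0, so the Pfkl value rests on the first probe alone. The other called genes of set B ran from -2.09 for Stc1, a secreted glycoprotein hormone, to -0.38 for Hk2, the inducible hexokinase.

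Tested directly, set B differed from set A in 16 of the 34 genes, all 16 lower in set B (2.53% of all probes called, 1.37% lower). Selenbp2 was 14.6-fold lower (log2 difference -3.87, SE 0.17, limma adjusted p = 1.52e-09), Ndrg1 10.3-fold lower (-3.36, SE 0.21, adjusted p = 7.23e-08) and Aldoc differed by -2.73 (SE 0.14, adjusted p = 5.63e-09). In set A the 5 called genes were small by comparison: Adm, the vasodilator adrenomedullin, and Bhlhe40, a transcriptional repressor, each at 0.58, Selenbp2 at 0.48, Aldoc at 0.41 and the mitophagy receptor Bnip3l at 0.38. None of those 5 was called in series 14 alone or with the sign of replicates 3 and 9 turned. The difference between the sets held 15 calls with those signs turned, 17 with those arrays left out, and 0 with the sign of every empty virus array that had the test RNA in Cy3 turned. The sets lie on different slides, and slide set and transduction cannot be told apart.

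**Figure D2:**
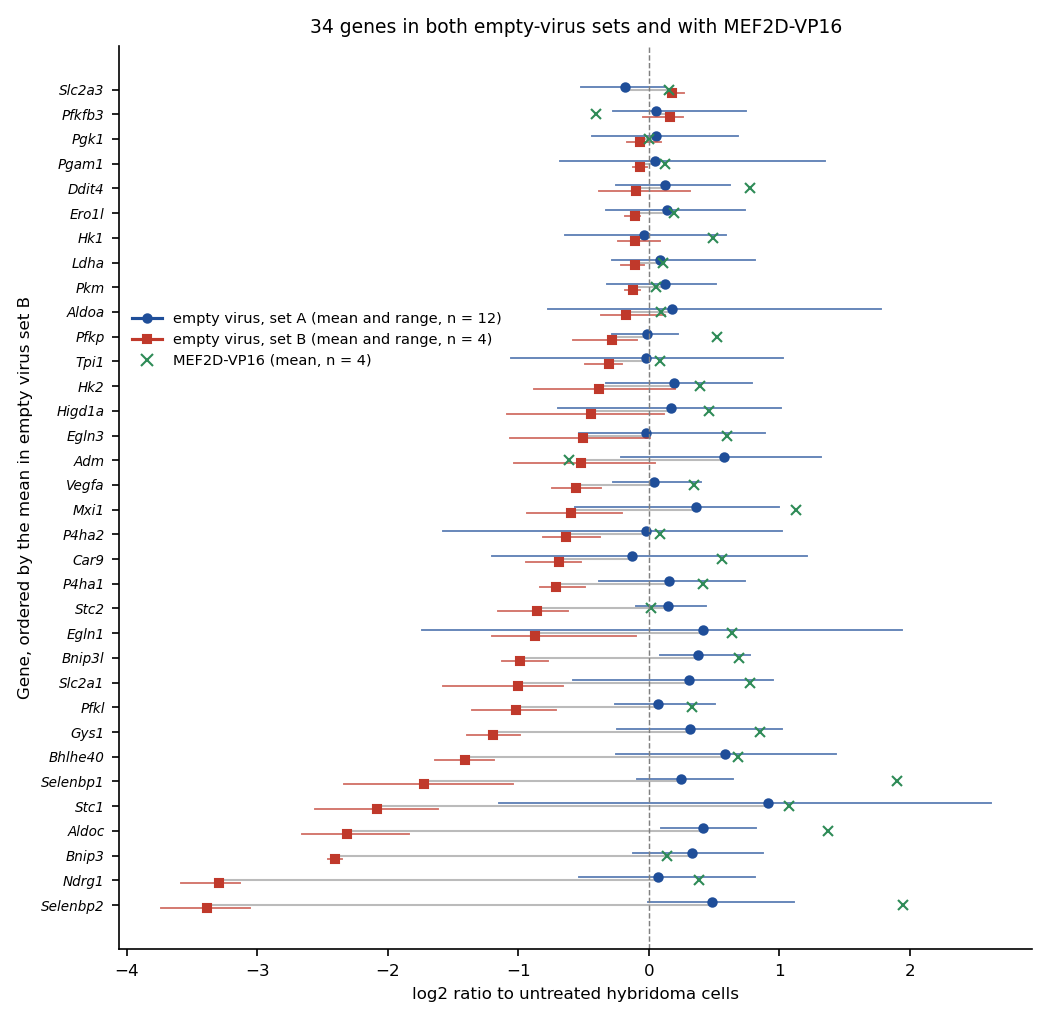
Log2 ratio over untreated cells (horizontal axis) for each of the 34 genes (vertical axis): mean and range of empty virus set A (n = 12) and set B (n = 4), and the mean of MEF2D-VP16 (n = 4). Selenbp2, Ndrg1, Bnip3 and Aldoc of set B lie between -3.74 and -1.84, outside the range of set A.

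In set B, Hk2 was not called when any 1 of the 4 arrays was left out, Higd1a not without replicate 1, 3 or 4, and Egln1 not without replicate 3 or 4. Without the dye term 6 of the 21 calls remained, since the difference between orientations then counts as spread. If the arrays with the test RNA in Cy3 were turned in sign, 8 genes would be called and 14 of the 21 would average above 0, Ndrg1 at 0.16 and Selenbp2 at 0.01. Adm was not called against set A without set B replicate 3 or 4. Of the markers of other cell types, in set B against untreated cells 0 of 4 erythroid, 0 of 5 myeloid, 0 of 6 fibroblast, 0 of 9 thymic epithelial, 0 of 4 B cell and 0 of 4 endothelial markers were called. Of 7 T cell markers 1 was lower, and of 8 mature single-positive markers 1 was higher and 1 lower. Against set A the calls in these lists were 2 mature single-positive markers, Itgb7, higher by 1.25, and Klf2, at -1.59. Their part in the results was not tested.

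HDAC7-VP16 cells were also low for many of these genes. Against empty virus set A on the same slide series, 16 of the 34 genes were called, all 16 lower (2.72% of all probes called, 1.29% lower), and the median difference of the 34 was -0.65. Against untreated cells 14 were called, 13 of them lower (2.77% of all probes called, 1.4% lower). Ndrg1 had a lowest, median and highest log2 ratio of -5.25, -3.19 and -0.19 over the 10 arrays. Bnip3 ran from -3.69 through a median of -1.70 to -0.04, and Selenbp2 from -3.16 through -1.98 to 0.14. The spread was wide and the highest arrays reached the range of set A for these 3 genes, though all 10 arrays lay below 0 for Ndrg1 and Bnip3. Against set A, Ndrg1 was 7.83-fold lower (log2 difference -2.97, SE 0.49, limma adjusted p = 0.000895), Selenbp2 differed by -2.11 (SE 0.34, adjusted p = 0.000766) and Bnip3 by -2.03 (SE 0.33, adjusted p = 0.000878).

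The metabolic genes followed at smaller sizes. Slc2a1 ran from -1.91 through -1.23 to 0.21 and differed from set A by -1.31 (SE 0.23, limma adjusted p = 0.00205). Ero1l, an oxidase that forms disulfide bonds in the endoplasmic reticulum, ran from -1.85 through -1.26 to 0.08 and differed by -1.20 (SE 0.19, adjusted p = 0.000766). Vegfa, the angiogenic growth factor, ran from -1.12 through -0.70 to -0.29, with a difference of -0.74 (SE 0.11, adjusted p = 0.000346). Adm differed by -1.16 and Gys1 by -1.15, while the platelet-type phosphofructokinase Pfkp differed by -0.42. Aldoc, at -0.86 (adjusted p = 0.0486), was not called without HDAC7-VP16 replicate 1, 2, 3, 4, 5, 7 or 8.

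The low values were much larger on some slides than on others. On the 6 arrays of series 15 Ndrg1 lay between -5.25 and -2.87, on series 14 slides 7 and 8 it read -1.89 and -1.78, and on series 14 slides 11 and 12 it read -0.64 and -0.19. Bnip3 averaged -2.46 in series 15 and -0.58 in series 14, and Selenbp2 -2.48 and -0.35. On series 14 slides 11 and 12 the Hdac7 probe read -0.15 and -0.02 while Cd28 read 3.32 and 3.07. Against set A within series 15 alone, 22 genes were called and Ndrg1 differed by -4.30, and within series 14 alone none of the 16 was called, Ndrg1 differed by -1.05 and Aldoc by 0.16. Leaving out series 14 slides 11 and 12 gave 19 calls.

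**Figure D3:**
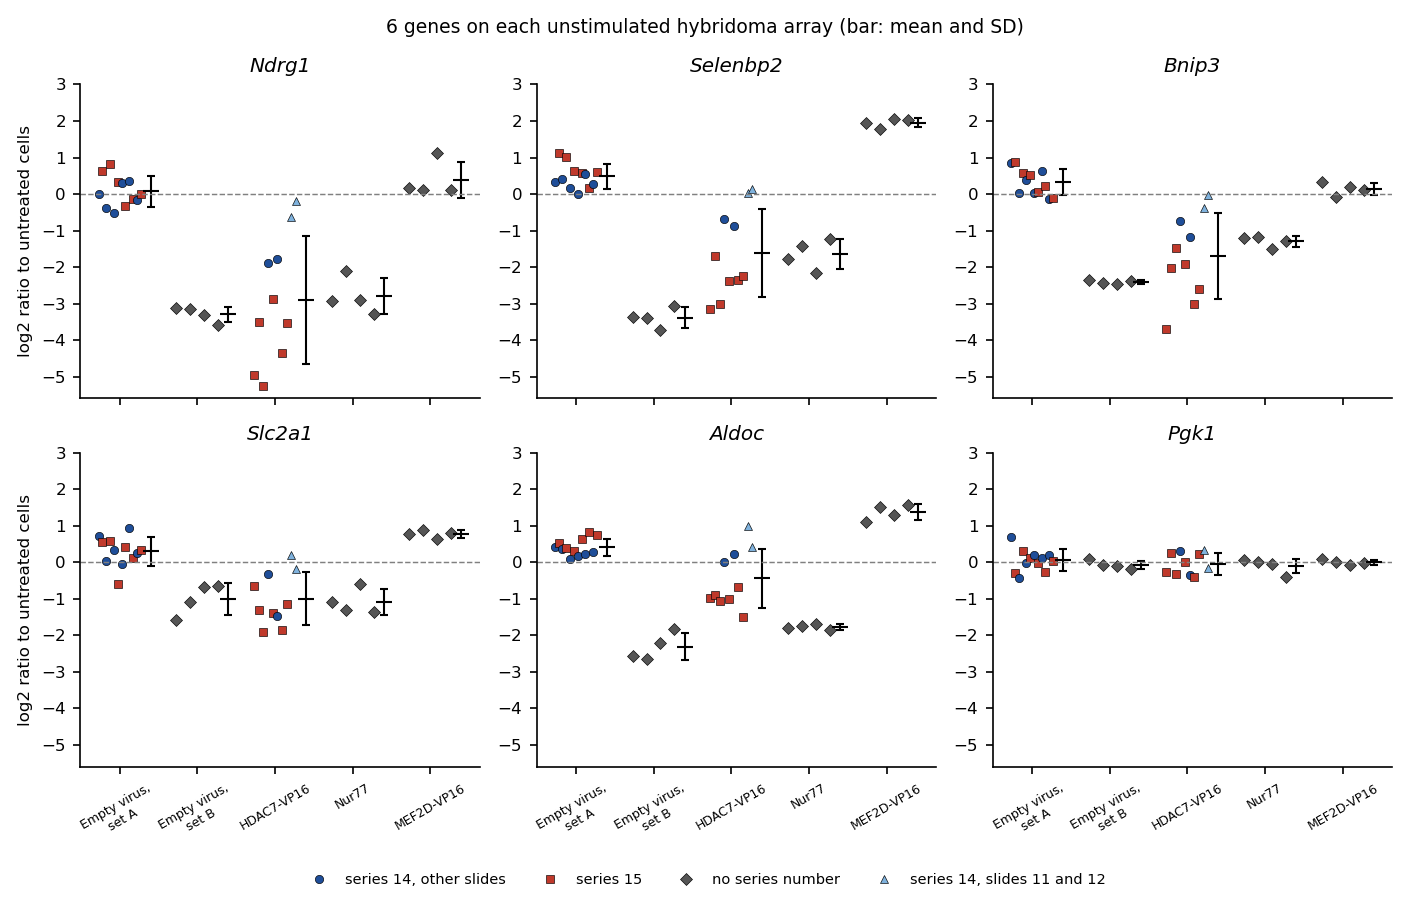
Log2 ratio over untreated cells (vertical axis) on every unstimulated hybridoma array for Ndrg1, Selenbp2, Bnip3, Slc2a1, Aldoc and Pgk1, by group (horizontal axis) and slide series (symbol), with bars for the mean and SD. Ndrg1 in HDAC7-VP16 spans -5.25 to -0.19 with series 15 lowest, and Pgk1 stays near 0 in every group.

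Against untreated cells, HDAC7-VP16 had 5 called genes without replicate 2 or 3, 8 without replicate 6 and 4 without replicate 5, 7 or 8, and Vegfa, Ndrg1, Ero1l and Pfkp were called on leaving out any 1 array. The only gene called higher was P4ha2, a collagen prolyl hydroxylase, at 0.74 (limma adjusted p = 0.0355), and it averaged 1.86 where the test RNA was in Cy5 and -0.39 where it was in Cy3. Stc1 averaged 1.06 and -2.62 by the same split, and was called in neither comparison. Measured against both empty virus sets together (16 arrays), 4 of the 16 calls against set A remained, Ndrg1 at -2.13 with an adjusted p of 0.0941.

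In Nur77 cells 18 of the 34 genes were called, all 18 lower than in untreated cells (13.2% of all probes called, 6.85% lower), and all 34 lay below 0, with a median of -0.59. Stc1 read -3.12, -2.49, -3.67 and -3.20 on the 4 arrays, and Ndrg1 read -2.92, -2.10, -2.90 and -3.27. Aldoc was tight at -1.80, -1.74, -1.69 and -1.86. Each of these arrays lay below all 12 arrays of set A for these genes. Stc1 was 8.68-fold lower than in untreated cells (log2 change -3.12, SE 0.14, limma adjusted p = 0.000153), Ndrg1 6.96-fold lower (-2.80, SE 0.15, adjusted p = 0.000227), and Aldoc changed by -1.77 (SE 0.08, adjusted p = 0.000167). Gys1, at -1.59, Slc2a1, at -1.09, and Hk2, at -0.96, were the called genes of sugar handling with the next largest changes, and the latter pair was not called without replicate 1.

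The test of Nur77 against set B, its neighbour by slide number, called 4 of the 34 genes (6.91% of all probes called, 3.62% higher and 3.29% lower), with a median difference of 0.03. Selenbp2 read -1.78, -1.42, -2.18 and -1.24 with Nur77 and was higher than in set B by 1.73 (SE 0.21, limma adjusted p = 0.000594). Bnip3 read -1.21, -1.18, -1.50 and -1.30 and was higher by 1.11 (SE 0.11, adjusted p = 0.000115). For both genes every Nur77 array lay above every array of set B, although below 0. Bhlhe40 was higher by 0.80 (adjusted p = 0.00325) and Stc1 lower by 1.03 on the log2 scale (log2 difference -1.03, adjusted p = 0.00277). Without Nur77 replicate 2 or 4, 7 genes were called, and against both empty virus sets together Selenbp2 differed by -1.17, Bnip3 by -0.94 and Bhlhe40 by -0.69. Against untreated cells, Nur77 lost the calls of Slc2a1, Bhlhe40 and Ddit4 without replicate 1 or 2, of Adm and Car9 without replicate 1, 2 or 3, of Hk2 without replicate 1 or 3, and of Bnip3l without replicate 2. Markers of other cells also differed from set B: the myeloid genes Itgam, at 2.90, and Fcgr3, at -1.19, the endothelial gene Pecam1, at -0.98, 2 mature single-positive markers higher and 2 lower, and 1 of 7 T cell markers higher. Their part in the results was not tested.

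MEF2D-VP16 went the other way. Of the 34 genes, 20 were called against untreated cells, 18 higher and 2 lower (18.3% of all probes called, 8.92% higher and 9.37% lower), with a median of 0.40. The MEF2D-VP16 arrays lay on slides 21, 22, 11 and 12 without a series number, and their array values below follow that order. Set B, on slides 1 to 4, served as control because it also carries no series number. Slide set and construct cannot be told apart in that comparison. Dye differences over all probes correlated at 0.233 between MEF2D-VP16 and set B, and at 0.781 between Nur77 and set B. Against set B, 26 were called, 25 of them higher (12.6% of all probes called, 6.4% higher and 6.16% lower), with a median difference of 0.90. The genes were chosen with earlier results of these data known. Setting 25 of 34 against that background is therefore no test of the list. For Ndrg1 and Bnip3 the difference from set B lay mostly in the low values of set B, since neither was called in MEF2D-VP16 against untreated cells. Set B had 21 of the 34 genes called lower than in untreated cells, so its low values enter the differences of other genes as well.

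Selenbp2 read 1.95, 1.78, 2.05 and 2.02 on the 4 MEF2D-VP16 arrays, and Selenbp1, its close paralog, read 1.94, 1.93, 1.81 and 1.92. The pair shares near-identical sequence, so on these arrays cross-hybridisation of their probes cannot be told apart from expression of both. Elsewhere Selenbp2 and Selenbp1 averaged -3.38 and -1.72 in set B, -1.63 and -0.66 with HDAC7-VP16, and -1.65 and -1.41 with Nur77. Cross-hybridisation was not tested. Aldoc read 1.11, 1.52, 1.28 and 1.58. All 4 arrays lay above the highest array of set A for Selenbp2 and Aldoc. Against untreated cells Selenbp2 rose by 1.95 (SE 0.08, limma adjusted p = 0.000127), Selenbp1 by 1.90 (SE 0.08, adjusted p = 0.000106) and Aldoc by 1.37 (SE 0.08, adjusted p = 0.000325).

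The repressor Mxi1, an antagonist of Myc, rose by 1.13 over untreated cells, Stc1 by 1.07, Gys1 by 0.85, and Slc2a1 and the mTOR inhibitor Ddit4 by 0.77 each. The oxygen sensors Egln1 and Egln3 rose by 0.64 and 0.60, and the second Egln3 probe read 0.15 and was not called. Ndrg1 read 0.18, 0.12, 1.13 and 0.12, with replicate 3 apart from the others, and was not called at 0.38, and Bnip3 was not called at 0.14. Adm, at -0.61 (SE 0.08, limma adjusted p = 0.00365), and Pfkfb3, at -0.41, were lower. Pfkfb3 makes the allosteric activator of phosphofructokinase. Against set B, Selenbp2 was 40.3-fold higher (log2 difference 5.33, SE 0.16, limma adjusted p = 3.73e-07), Aldoc 12.9-fold and Ndrg1 12.8-fold higher (3.68, SE 0.19, adjusted p = 7.94e-06). Set B itself averaged -3.38 for Selenbp2, -2.31 for Aldoc and -3.29 for Ndrg1 over untreated cells, and MEF2D-VP16 averaged 1.95, 1.37 and 0.38. The larger part of each log2 difference therefore lies in set B.

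Smaller calls of MEF2D-VP16 depended on single arrays. Against untreated cells, Hk2 was lost without replicate 2, 3 or 4, P4ha1 without 1, 2 or 4, Hk1 without 1 or 4, Pfkfb3 without 2 or 3, Bnip3l without 3 and Pfkp without 2, and Ndrg1 was called at 0.62 without replicate 1. Against set B, Tpi1 was lost on leaving out any 1 of the 8 arrays, Ddit4 without set B replicate 1, 2 or 4, Hk1 without replicate 1, 2 or 4 of either group, and P4ha2 without MEF2D-VP16 replicate 3 or 4 or set B replicate 1, 3 or 4. Against both empty virus sets together, 6 of the 34 genes were called, Selenbp2 at 2.43 with an adjusted p of 0.0782. Of the markers, 3 of 8 mature single-positive genes were called higher than in set B, 1 T cell gene higher and 1 lower, and 1 gene lower in each of the endothelial, erythroid, fibroblast and myeloid lists. Their part in the results was not tested.

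Stimulation with PMA and ionomycin split the genes. With empty virus, 18 of the 34 were called against unstimulated set A, 4 higher and 14 lower (12.5% of all probes called, 6.07% higher and 6.43% lower), and 15 were called against untreated cells, 4 higher and 11 lower (16.1% of all probes called, 7.62% higher and 8.48% lower). These counts and the p-values below take the 8 arrays as separate, though some genes differed by slide pair, as described below. Averaging the 2 arrays of one slide number left far fewer calls against untreated cells. No averaged count against set A is given here. Bhlhe40, a gene that T cell receptor signals also induce, had a lowest, median and highest value of 1.67, 2.05 and 2.55 over the 8 arrays, all above the highest array of set A, 1.44. It rose 4.28-fold over untreated cells (log2 change 2.10, SE 0.09, limma adjusted p = 8.77e-06) and by 1.52 over set A (SE 0.15, adjusted p = 7.9e-07). Hk2, which phosphorylates glucose on entry, ran from -1.30 through -1.01 to -0.61, and Slc2a1 from -1.06 through -0.90 to -0.30. All 8 arrays lay below 0 for both genes. Against set A they changed by -1.20 (adjusted p = 8.33e-06) and by -1.13 (adjusted p = 4.74e-05).

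The other genes called higher with stimulation were P4ha2, at 1.25 against set A, Pfkfb3, at 0.52, and Aldoc, at 1.15 (limma adjusted p = 0.03). Selenbp2, at -1.22, Egln1, at -0.99, Adm, at -0.98, Ndrg1, at -0.92, and Higd1a, a mitochondrial protein, at -0.86, were among the lower calls. Aldoc was not called against either control without empty virus replicate 5, 6, 7 or 8, and Egln1 not against set A without replicate 1, 2, 5, 6 or 8. With the signs of set A replicates 3 and 9 turned, 16 genes were called, within series 14 alone 9, within series 15 alone 10, and against both unstimulated empty virus sets together 9.

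On the 16 stimulated arrays the values of Aldoc, Ndrg1 and Selenbp2 differed by slide pair. Over all probes, arrays of adjacent slides correlated at 0.219 with empty virus and 0.058 with HDAC7 DP in the fits against untreated cells. With empty virus, Aldoc lay between 0.11 and 0.76 on slides 13 and 14 and between 2.50 and 3.00 on slides 15 and 16. With HDAC7 DP it lay between 2.08 and 2.59 on slides 17 and 18 and between 0.18 and 0.36 on slides 19 and 20. The same pairs of slides were high in both slide series, and each pair held both dye orientations. Ndrg1 averaged -1.36 on slides 13 and 14, -0.34 on 15 and 16, -0.07 on 17 and 18, and -0.68 on 19 and 20, and Selenbp2 averaged -1.31, -0.17, -0.04 and -1.26 in the same order. The labels give no difference between these pairs. With the 2 arrays of one slide number averaged, 1 gene was called with empty virus against untreated cells and 2 with HDAC7 DP, and within series 14 or 15 alone 1 was called with empty virus.

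**Figure D4:**
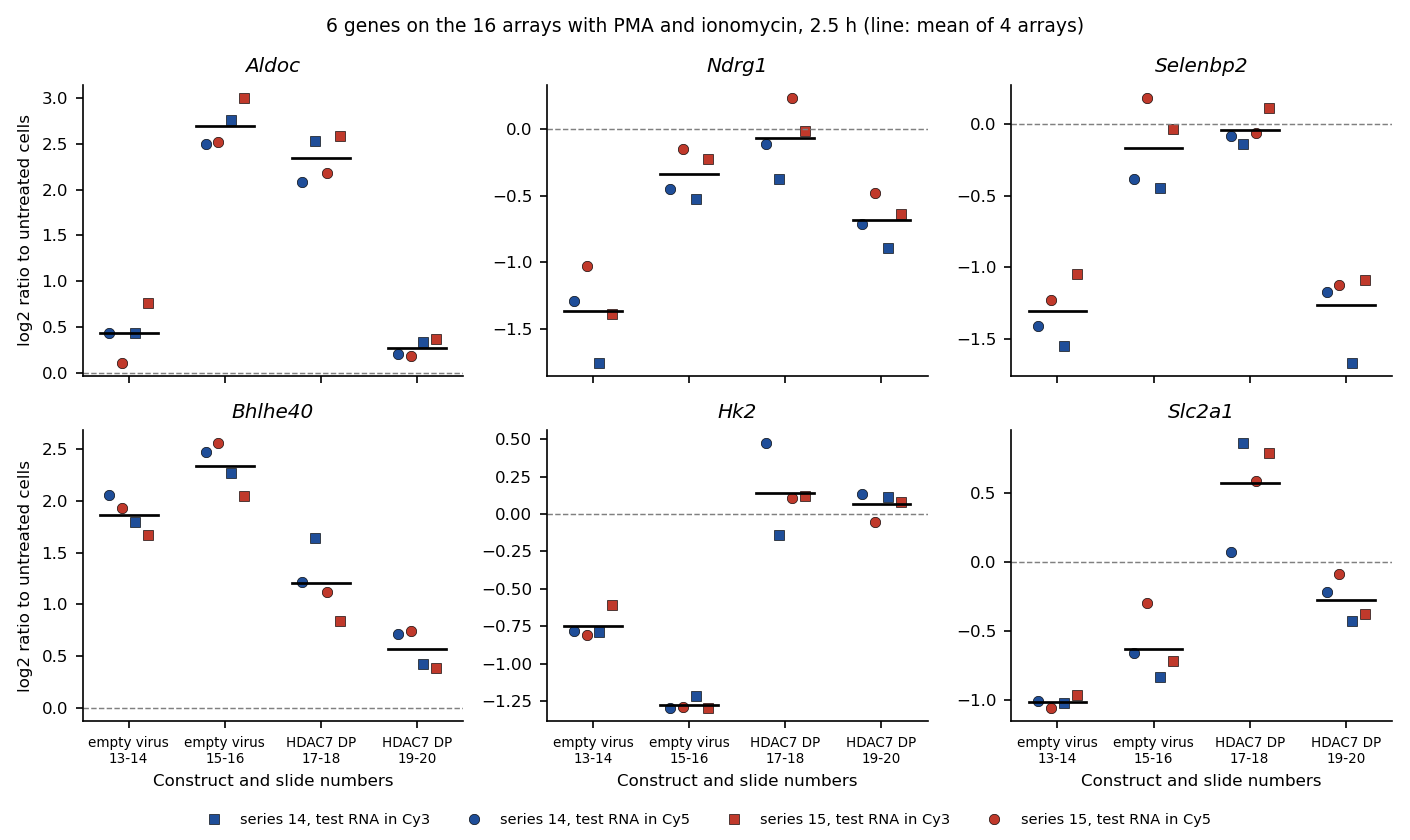
Log2 ratio over untreated cells (vertical axis) of Aldoc, Ndrg1, Selenbp2, Bhlhe40, Hk2 and Slc2a1 on the 16 stimulated arrays, by slide pair (horizontal axis), with slide series by colour, dye orientation by symbol and lines for the mean. Aldoc is high on slides 15 to 18, from 2.08 to 3.00, and low on slides 13, 14, 19 and 20.

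Stimulated cells with HDAC7 DP had 12 of the 34 genes called against untreated cells, 4 higher and 8 lower (19.6% of all probes called, 8.96% higher and 10.7% lower). Within series 14 alone 3 were called, and within series 15 alone 1. Against stimulated empty virus 4 were called (1.65% of all probes): Hk2 and Slc2a1 higher, Bhlhe40 and Vegfa lower. Hk2 ran from -0.14 through a median of 0.11 to 0.47 with HDAC7 DP, so each array lay above each empty virus array, and it was higher by 1.11 (SE 0.12, limma adjusted p = 8.04e-05). Bhlhe40 ran from 0.39 through 0.79 to 1.64, each array below the lowest of 1.67 with empty virus, and differed by -1.21 (SE 0.17, adjusted p = 0.000775). Slc2a1 ran from -0.43 through -0.01 to 0.86, overlapping empty virus, and was higher by 0.97 (SE 0.20, adjusted p = 0.0161). Vegfa ran from -1.08 through -0.46 to -0.15 against -0.11 to 0.14, and differed by -0.52 (SE 0.11, adjusted p = 0.0285).

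Vegfa was not called without empty virus replicate 1, 4, 6 or 8 or HDAC7 DP replicate 5, and with adjacent slides as a random block neither Slc2a1 (adjusted p = 0.0546) nor Vegfa (adjusted p = 0.166) was called. With the 2 arrays of one slide number averaged, Hk2 alone of the 4 was called. Within series 14 alone 1 gene was called, and within series 15 alone none. Against untreated cells, Aldoc, at 1.31, was lost without HDAC7 DP replicate 1, 2, 7 or 8, Hk1 without 1, 3 or 7, and Stc2 without any of 3 to 7. Stimulated empty virus against untreated cells lost Adm and Selenbp2 without replicate 1, 2, 3, 4, 5 or 7, P4ha1 without 5, 6, 7 or 8, and Mxi1 without 3, 5 or 7.

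The glycolytic enzymes Aldoa, Tpi1, Pgk1, Pgam1, Pkm and Ldha and the glucose transporter Slc2a3 were called in none of the 7 hybridoma groups against untreated cells, and are described together for that reason. Of the further pathway genes below, the enzyme Gapdh rose by 0.70 with stimulation over set A (limma adjusted p = 0.0434). The group means of the uncalled genes ran from -0.12 to 0.05 for Pgk1, from -0.17 to 0.11 for Ldha, from -0.12 to 0.13 for Pkm and from -0.24 to 0.13 for Pgam1. Those of Tpi1 ran from -0.31 to 0.09, of Slc2a3 from -0.19 to 0.18 and of Aldoa from -0.17 to 0.37. Single arrays scattered more. With HDAC7-VP16, Pgam1 ran from -1.18 to 1.56 over the arrays, Aldoa from -2.09 to 1.73 and Pgk1 from -0.41 to 0.33. A gene that is not called is not shown to be equal. By contrast the change of Selenbp2 spanned 5.33 between its lowest and highest group, that of Stc1 4.19, of Aldoc 3.88 and of Ndrg1 3.68. Adm, Aldoc, Bhlhe40 and Selenbp2 were called in 6 of the 7 groups.

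Of 54 further genes of oxygen sensing, sugar handling and the HIF response, 9 were called lower and 0 higher in set B against untreated cells, where 5.72% of all probes were called. They included Ccng2, an atypical cyclin, at -2.23, the glycogen branching enzyme Gbe1 at -1.33, the adenylate kinase Ak4 at -1.12 and the phosphoglucomutase Pgm1 at -0.98. HDAC7-VP16 against set A had 1 higher, Eno3, the muscle enolase, at 2.07, and 7 lower, with Ccng2 at -1.99 (2.72% of all probes called). MEF2D-VP16 against set B had 17 higher and 2 lower, with Eno3 at 3.86, Ccng2 at 3.38 and Gbe1 at 2.13 (12.6% of all probes called). Nur77 against untreated cells had 4 higher and 8 lower, with Eno3 at 3.59 and Ccng2 at -1.35 (13.2% of all probes called). The HIF subunit genes Hif1a, at 0.07, and Arnt, at -0.01, and the ubiquitin ligase gene Vhl, at -0.25 (limma adjusted p = 0.122), were not called in set B. Stimulated empty virus against set A had 8 higher and 5 lower, with Ccng2 at -2.59 (12.5% of all probes called).

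In the thymus, DO11.10 thymocytes differed from mhc -/- thymocytes in 21 of the 34 genes, 6 higher and 15 lower in DO11.10, where 36.3% of all probes were called, 20.5% higher and 15.8% lower. The titles put mhc -/- in the place of the test RNA. The direction DO11.10 over mhc -/- was instead read from 8 markers of mature single-positive thymocytes, 6 of them called higher with a median of 2.04, so those markers are no result. Read as the titles stand, the 6 and 15 genes would change places and every sign would turn. In a bulk sample, fewer cells of a type and less RNA per cell cannot be told apart. Ddit4, which restrains mTOR, had a lowest, median and highest value of 1.58, 1.90 and 2.78. Adm ran from 0.84 through 1.16 to 1.60. All 6 arrays lay above 0 for both, with replicate 2 apart from the others for Ddit4. Ddit4 was 3.96-fold higher in DO11.10 (log2 difference 1.99, SE 0.12, limma adjusted p = 1.77e-05) and Adm differed by 1.21 (SE 0.12, adjusted p = 0.000163).

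Bnip3 ran from -2.12 through -1.83 to -1.41 and was 3.47-fold lower in DO11.10 (log2 difference -1.79, SE 0.07, limma adjusted p = 2.04e-06). Stc1 ran from -2.16 through -1.22 to -0.71 and differed by -1.33 (SE 0.13, adjusted p = 0.000157). Bhlhe40 ran from -1.13 through -0.93 to -0.88 and differed by -0.95 (SE 0.05, adjusted p = 8.67e-06). None of the 6 arrays reached 0 for these 3 genes. Of the glycolytic enzymes 2 were higher, Ldha at 0.28 and Pkm at 0.24, and 6 were lower, from -0.74 for Hk2 and -0.72 for Aldoc to -0.17 for Pfkp. Ero1l, at 0.75, and P4ha1, at 0.48, were higher. The Pfkl probes differed here: the second was higher at 0.50 (adjusted p = 0.00327) and the first was not called.

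The smaller differences between the thymocytes were lost on leaving out single arrays: Stc2 was lost without any of replicates 2 to 6, Slc2a1 without 1, 2, 3 or 5, Pfkp and Pkm without any of 1 to 4, Hk1 without 2, 3 or 6, and Tpi1 without 1 or 3. Fitted with all groups in one model, 11 of the 34 were called. Markers of other cells differed as well. Of 9 thymic epithelial markers 6 were called higher and 2 lower, of 4 B cell markers 3 higher and 1 lower, of 6 fibroblast markers 2 higher, and of 4 erythroid markers 1 higher (Alas2, at 2.04). Among the endothelial markers Pecam1 averaged 2.39, and Cdh5, Kdr and Tek averaged -0.02, 0.00 and 0.04. The myeloid markers averaged between -0.24 (Ctss) and 0.12 (Fcgr3). The part of all these markers in the differences was not tested.

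Few of these genes were called after antigenic peptide. At 3 h, 3 of the 34 were called (2.71% of all probes), at 6 h 5 (4.57%) and at 12 h 1 (3.38%), the last a share below the background. Over all probes, 12 h replicates 1 and 2, on slide series 13, correlated with arrays of opposite dye at medians of 0.097 and 0.103. Replicates 3 to 6 did so at 0.674 to 0.774. The 12 h count pools both kinds of array, so it does not show that few genes changed. No count without both series 13 arrays is given here. Bhlhe40 ran from 1.41 through a median of 1.90 to 2.71 at 3 h, from 1.78 through 2.01 to 2.46 at 6 h, and from 1.69 through 2.16 to 3.24 at 12 h. Ndrg1 ran from 1.17 through 1.47 to 1.72 at 3 h, from 0.14 through 0.69 to 1.00 at 6 h, and from -0.71 through -0.16 to 1.12 at 12 h. Bhlhe40 lay above 0 on all 18 arrays, and the 3 h arrays of Ndrg1 lay above every 6 h array. Over uninjected thymocytes, Bhlhe40 rose by 2.00 (SE 0.16, limma adjusted p = 0.00193), by 2.08 (SE 0.10, adjusted p = 3.33e-05) and by 2.26 (SE 0.20, adjusted p = 0.00675) at the successive times. Ndrg1 rose by 1.47 at 3 h (SE 0.08, adjusted p = 0.000257) and by 0.61 at 6 h (SE 0.09, adjusted p = 0.00816), and was lower at 6 h than at 3 h by 0.86 (log2 difference -0.86, adjusted p = 0.00908). That was the 1 gene called between those times (0.134% of all probes), and it was not called with all groups in one model (limma adjusted p = 0.962) or with one spread for all arrays (adjusted p = 0.0579). All 3 h arrays lay on slide series 13, but at 6 h only replicates 1 and 2 did, so time and slide set were partly confounded. At 6 h Ndrg1 read 1.00 and 0.72 on series 13, and from 0.14 to 0.75 on slides without a series number. At 12 h it read 1.12 and -0.015 on series 13, and from -0.71 to -0.09 on the others. The part of slide set was not tested.

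**Figure D5:**
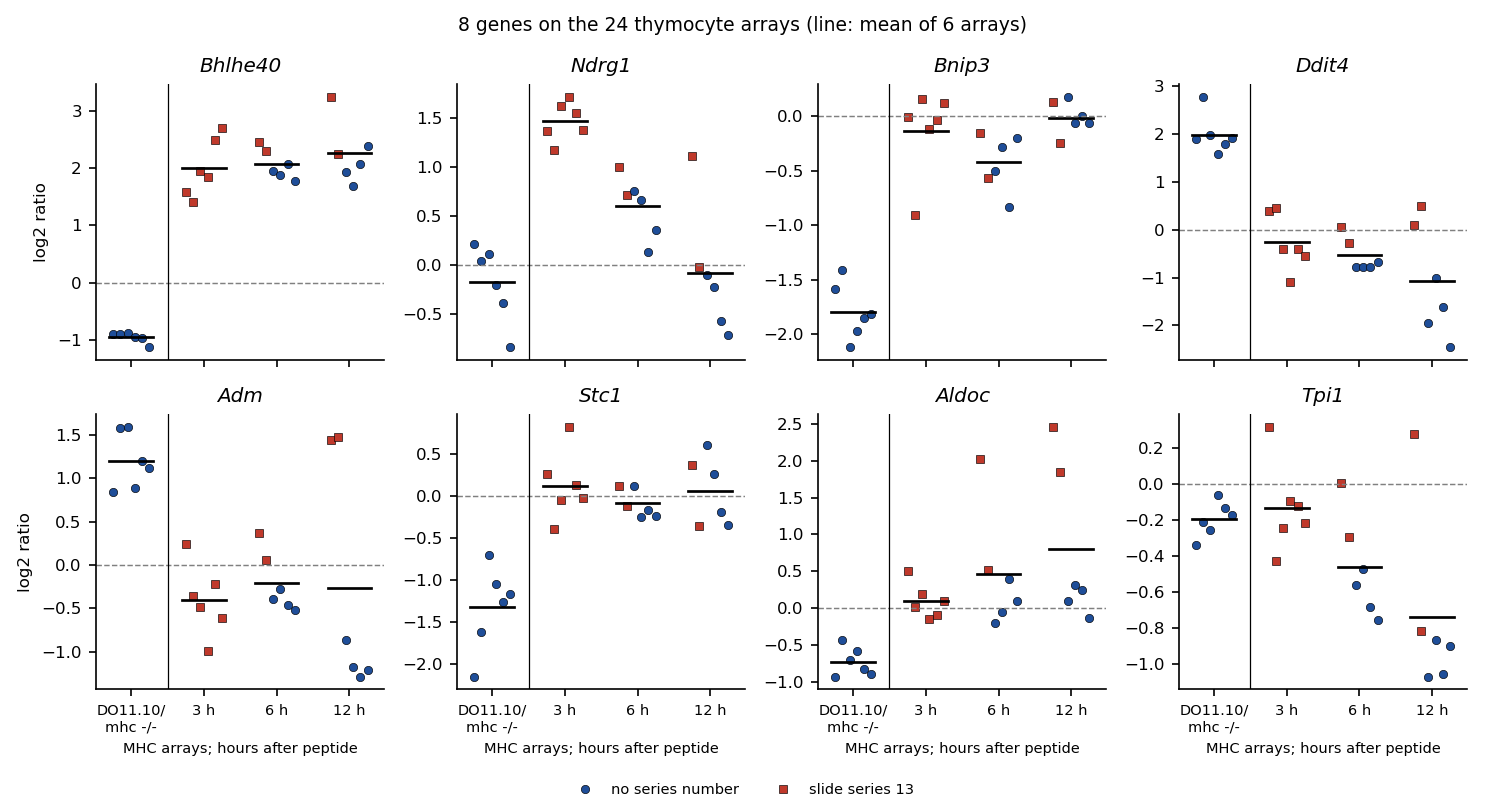
Log2 ratio (vertical axis) of Bhlhe40, Ndrg1, Bnip3, Ddit4, Adm, Stc1, Aldoc and Tpi1 on the 24 thymocyte arrays, DO11.10 over mhc -/- and peptide-injected over uninjected at 3, 6 and 12 h (horizontal axis), with lines for the mean. Bhlhe40 lies below 0 in the first comparison, from -1.13 to -0.88, and above 0 at every time after peptide, and Ndrg1 has medians of 1.47 at 3 h and -0.16 at 12 h.

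The lower calls were small. At 3 h P4ha1 was at -0.44 (limma adjusted p = 0.0354) and was lost without replicate 1, 3, 4, 5 or 6. At 6 h Tpi1 was at -0.46, Bnip3 at -0.42 and Pfkl at -0.27. The count at 6 h was 3 without replicate 2 or 6 and 2 without replicate 3, 4 or 5. At 12 h 4 genes were called without replicate 1 (among them Tpi1 at -0.95) and 4 without replicate 2 (among them Ero1l at -1.04 and Ddit4 at -1.49). Between 6 and 12 h limma called 0 of the 34 (0.607% of all probes) and 5 had an unadjusted p under 0.05, and 2 were called without 12 h replicate 1 and 3 without 12 h replicate 2.

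Those 12 h arrays, on slides 13-7 and 13-8, stood apart for several of these genes. Adm read 1.44 and 1.47 on them and between -1.29 and -0.87 on the other 4 arrays, and Ddit4 read 0.10 and 0.49 against -2.46 to -1.0. Aldoc read 2.46 and 1.84 on them, and 2.02 on the 6 h array on slide 13-5. The slide names 13-5 to 13-8 stand in titles of both 3 h arrays and later arrays, and which is right was not tested. Erythroid and thymic epithelial markers moved with injection: at 3 h 1 of 4 and 4 of 9 were called lower, at 6 h 2 of 4 and 5 of 9, and at 12 h 0 of 4 and 2 of 9. Markers of other lists also lay away from 0. The fibroblast genes Col1a1 and Dcn averaged -0.73 and -0.36 at 3 h, while Lum averaged -0.06. The B cell gene Cd79a averaged -0.31 at 6 h. The myeloid gene Cd68 averaged -0.39 at 6 h and Ctss 0.80 at 12 h, while Itgam averaged -0.02 at 6 h. The part of all these markers in the results was not tested.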

How the data were processed

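The 74 arrays were 2-colour, with aminoallyl cDNA of total RNA coupled to Cy3 or Cy5, per the labels' protocols. The values used were the authors' deposited log ratios, taken as log2 ratios. Their base, direction, scanner and normalization were not given in the sources used here. Dye orientation was taken from the titles, and the ratios were read as test over partner RNA, already turned, but as DO11.10 over mhc -/- in that group, by its mature thymocyte markers. Column medians lay between -0.021 and 0.023, and 0 values were missing and 0 columns unmapped. Arrays were centred on their median. Of 16463 probes, 14551 carried 1 gene symbol, 6 several and 1906 none, by the platform annotation. A gene with several probes was represented by the first.

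Each comparison was fitted per probe with limma 3.58.1 (statmod 1.5.0, R 4.3.3), with dye orientation as covariate and Benjamini-Hochberg adjustment over all probes, called at 0.05. The code was tested on simulated data. Tables and figures used Python 3.11.15, pandas 2.3.3 and matplotlib 3.10.9. Every gene of the list with a probe could be named, called genes first by size, and the genes, the roles, the further pathway genes and the marker lists were chosen with earlier results of these data known. Alternatives changed the centring, spread, dye term, probe rule, blocks, slide series, control arrays and signs, or left out each array in turn (in a group of up to 10). Arrays limit precision by their number.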

Additional observations from a re-analysis of the deposited data

Results flagged for a closer look

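Of 340 sets of arrays tested for one array far from the rest (a gene within a group of 4 to 10 arrays), 34 had one, 10%, where chance flags about 1 in 20 groups. Values are log2 ratios and no explanation was tested. With stimulated empty virus they were Mxi1 at 0.18 on replicate 6, and Tpi1 at -1.26 and Ldha at -0.40 on replicate 7. With stimulated HDAC7 DP they were Hk2 at 0.47 on replicate 1, and Egln3 at -0.75, Ldha at -0.66 and Pkm at -0.52 on replicate 5. With MEF2D-VP16, replicate 3 stood apart for Ndrg1 (1.13), Egln3 (1.04) and Selenbp1 (1.81), and replicate 1 for Higd1a (0.30), Ero1l (0.76) and Car9 (0.78). In empty virus set B, Egln1 read -0.10 on replicate 1 and Ero1l -0.18 on replicate 4. With Nur77, replicate 4 stood apart for Slc2a3 (0.24), Tpi1 (-0.97) and Ldha (-0.64), and replicate 1 for Ddit4 (-0.76).

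In DO11.10 against mhc -/- thymocytes, Ddit4 read 2.78 on replicate 2, Bnip3l -0.14 on replicate 3 and Bhlhe40 -1.13 on replicate 6. At 3 h after peptide, Bnip3 read -0.91 and Aldoa -0.67 on replicate 2, Pgam1 0.35 on replicate 4, Car9 -0.98 on replicate 5 and Gys1 0.67 on replicate 6. At 6 h, replicate 1 stood apart for Aldoc (2.02), Hk2 (0.87) and Selenbp1 (-0.47). At 12 h, replicate 2 stood apart for Aldoa (-1.68) and Pfkl (0.29), and replicate 1 for P4ha2 (0.77) and Tpi1 (0.28).

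The 2 sets of empty virus arrays differed in 16 of the 34 genes by the limma test of the difference, set B minus set A. The log2 differences were -3.87 for Selenbp2, -3.36 for Ndrg1, -3.0 for Stc1, -2.73 for Bnip3 and for Aldoc, -1.99 for Bhlhe40, -1.97 for Selenbp1 and -1.51 for Gys1. They were -1.36 for Bnip3l, -1.31 for Slc2a1, -1.10 for Adm, -1.08 for Pfkl, -1.0 for Stc2, -0.96 for Mxi1, -0.86 for P4ha1 and -0.59 for Vegfa. The second Pfkl probe averaged -0.14 in set B and 0.11 in set A (median -0.35). Stc1 in set A averaged 2.04 with the test RNA in Cy5 and -0.22 with it in Cy3. Ndrg1 differed between the 6 h and 3 h peptide arrays by -0.86, and was not called there with all groups in one model or with one spread for all arrays.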

How the results depend on the processing

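Over all comparisons 220 calls were made on the 34 genes. On leaving out each array in turn 167 were kept, counting the 5 calls of set A against untreated cells, whose 12 arrays were not left out singly. Of all calls 49 were kept in every other setting and 41 throughout, and 28 reversed in some setting, all below. Leaving out each array gave 4 to 17 called genes for HDAC7-VP16 and 15 to 18 against set A, 18 to 21 for set B, 10 to 13 for stimulated empty virus, 16 to 20 for MEF2D-VP16, 12 to 18 for Nur77 and 4 to 7 against set B. It gave 2 to 4 at 3 h, 2 to 7 at 6 h, 1 to 4 at 12 h and 0 to 3 between 12 and 6 h.

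Without the dye term, calls numbered 6 in set B (main 21), 7 in HDAC7-VP16 against untreated cells (14), 2 in Nur77 against set B (4) and 2 at 12 h (1). Series 14 alone gave 0 in set A (5), 0 in HDAC7-VP16 against untreated cells or set A (16), 1 in stimulated empty virus against untreated cells (15) and 9 against set A (18), and 3 in HDAC7 DP against untreated cells (12) and 1 against empty virus (4). There Aldoc in HDAC7-VP16 was 0.16 over set A. Series 15 alone gave 1, 10, 1 and 0 for these 4 stimulated comparisons in the same order. Averaging arrays of one slide number gave 1, 2 and 1 for stimulated empty virus and HDAC7 DP against untreated cells and for HDAC7 DP against empty virus, and adjacent slides as a random block gave 2 for the last. One model for all groups gave 1 in Nur77 against set B, 11 in DO11.10 against mhc -/- thymocytes (21), 2 at 6 h (5), 9 at 12 h and 0 between 6 and 3 h (1). One spread gave 8 at 6 h and 0 between 6 and 3 h.

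With all 16 empty virus arrays as control, 4 were called in HDAC7-VP16 (16), 9 in stimulated empty virus (18) with Bnip3 at 0.20, and 6 in MEF2D-VP16 (26). In Nur77 Bnip3 was then at -0.94, Bhlhe40 at -0.69 and Selenbp2 at -1.17. Turning the sign of set A replicates 3 and 9 gave 0 in set A, and exchanging their dyes 9. Turning the empty virus arrays with test RNA in Cy3 gave 0 in set A (Bnip3l -0.041, Aldoc -0.0655), 10 in HDAC7-VP16 against set A, 7 in MEF2D-VP16 (P4ha2 -0.0865, Hk2 -0.081), and in Nur77 Bnip3 at -1.32, Bhlhe40 at -0.77 and Selenbp2 at -1.67. In set B it gave 8, with Ndrg1 at 0.16, Bnip3 0.0205, Gys1 0.18, Pfkl 0.24, Mxi1 0.30, P4ha1 0.11, P4ha2 0.17, Egln1 0.23, Adm 0.51, Stc1 0.44, Hk2 0.47, Bhlhe40 0.17, Car9 0.14 and Selenbp2 0.0145. Between the sets it gave 0, with Ndrg1 at 0.0885, Gys1 0.10, Pfkl 0.39, Mxi1 0.13 and Adm 0.50. The causes were not tested. No paired analysis was possible because replicate numbers were given in accession order. Slide numbers and adjacent slides were fitted as random blocks instead, with correlations over probes up to 0.192 and 0.219 (stimulated empty virus against untreated cells).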
